A study of Homo sapiens with 72 samples.

Results

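The MHC class I and antigen processing genes described here were B2M, HLA-F, TAP1, TAP2, TAPBP, PSMB8, PSMB9, ERAP1 and NLRC5. They are 9 of the 20033 protein-coding genes of GENCODE 44 on the primary chromosomes of hg38 and were picked by a list of symbols. Histone marks at their starts and over their bodies were profiled by Cut&Tag, in which an antibody directs a transposase to a mark and the DNA around it is amplified and sequenced. The cells were Raji, a Burkitt lymphoma line that carries Epstein-Barr virus, and NALM6 and REH, both B-cell acute lymphoblastic leukemia lines. Each line was either left untreated or kept with 1 nM bryostatin, an activator of protein kinase C. The labels give the treatment as overnight, and a legend of the study gives it as a full day. H3K4me2 and H3K4me3, which mark active or poised promoters and enhancers, and H3K27me3, which marks repressed chromatin, were each measured in 3 replicates, so 54 libraries fell into 18 groups of 3. The study asked whether bryostatin changes the epigenome of these cells, and all groups of a line shared the same medium. No source used here says that the replicates were separate cultures, so p-values measure only the spread between these libraries. The marks were read from cells in bulk, so a larger share of marked cells and more mark per cell cannot be told apart.

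MHC class I molecules show peptides from inside the cell to CD8+ T cells, and their absence is read by natural killer cells. The proteasome cuts proteins into peptides, and under interferon its subunits are exchanged for the immunoproteasome subunits encoded by PSMB8 and PSMB9. The TAP1 and TAP2 proteins form the pump that carries peptides into the endoplasmic reticulum, tapasin (TAPBP) holds empty class I molecules at that pump, and ERAP1 trims the peptides there. B2M encodes the light chain of every class I molecule, HLA-F encodes a non-classical heavy chain, and NLRC5 encodes the transactivator of the class I genes and of several of these partners. Loss of some of these parts, such as B2M or the pump, lowers class I on the surface, which is a known way for leukemia and lymphoma cells to escape T cells.

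In hg38 the genes lie on 4 chromosomes. B2M spans chr15:44711358-44718851, ERAP1 chr5:96760810-96808100 and NLRC5 chr16:56989485-57083531. The other 6 are in or next to the MHC on chromosome 6, with HLA-F at chr6:29722775-29738528 and TAPBP at chr6:33299694-33314284. TAP2 (chr6:32821833-32838739), PSMB8 (chr6:32840717-32844679), TAP1 (chr6:32845209-32853816) and PSMB9 (chr6:32844136-32859851) follow each other there. The canonical starts of TAP1 and PSMB9 are 488 bp apart and point away from each other, so a single peak covered both in these data and the values of the pair are identical. The starts of PSMB8 and TAP2 are 9657 bp and 14965 bp from that of TAP1. Other genes also start close by, and their marks cannot be told apart from those of the member: PATL2 194 bp from B2M, the antisense transcript PSMB8-AS1 39 bp from PSMB8, an unnamed protein-coding model 83 bp from TAP2 and a pseudogene 537 bp from HLA-F.

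The promoters are shown because most of them hold the core of the interferon-stimulated response element. RefSeq windows of GRCh38.p14, 300 bases long from 250 bases before a start to 50 after it, were matched by symbol for 8 of the 9 genes. Each line below runs 5′ to 3′ on the strand of the gene from 200 bases before the start. The capitals mark that core, GAAA followed after any 2 bases by GAAA, on either strand, where overlapping matches run together.
B2M, chr15:44711317-44711546, plus strand: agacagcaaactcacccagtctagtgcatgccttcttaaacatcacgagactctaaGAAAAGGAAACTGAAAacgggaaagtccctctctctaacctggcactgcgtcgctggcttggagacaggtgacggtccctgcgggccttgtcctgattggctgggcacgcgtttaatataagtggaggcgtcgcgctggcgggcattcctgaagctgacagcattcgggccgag
HLA-F, chr6:29723234-29723463, plus strand: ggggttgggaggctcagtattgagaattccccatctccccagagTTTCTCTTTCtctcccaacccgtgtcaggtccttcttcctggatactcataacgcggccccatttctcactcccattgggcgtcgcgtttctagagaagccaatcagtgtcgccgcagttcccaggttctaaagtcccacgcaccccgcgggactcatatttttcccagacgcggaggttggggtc
TAP1, chr6:32853675-32853904, minus strand: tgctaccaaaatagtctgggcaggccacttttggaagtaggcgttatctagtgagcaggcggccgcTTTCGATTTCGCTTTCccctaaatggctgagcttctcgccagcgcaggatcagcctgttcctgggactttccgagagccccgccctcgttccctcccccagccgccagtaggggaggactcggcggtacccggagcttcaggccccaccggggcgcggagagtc
TAP2, chr6:32838710-32838939, minus strand: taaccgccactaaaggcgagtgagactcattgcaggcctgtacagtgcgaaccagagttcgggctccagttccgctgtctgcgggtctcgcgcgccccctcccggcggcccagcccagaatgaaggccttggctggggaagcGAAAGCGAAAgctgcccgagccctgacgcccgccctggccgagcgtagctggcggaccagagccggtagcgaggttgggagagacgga
TAPBP, chr6:33314049-33314278, minus strand: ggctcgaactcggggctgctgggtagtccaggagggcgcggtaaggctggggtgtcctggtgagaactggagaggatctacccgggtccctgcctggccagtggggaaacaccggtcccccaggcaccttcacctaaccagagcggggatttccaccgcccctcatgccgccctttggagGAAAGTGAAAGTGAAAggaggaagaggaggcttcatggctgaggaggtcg
PSMB8, chr6:32844018-32844247, minus strand: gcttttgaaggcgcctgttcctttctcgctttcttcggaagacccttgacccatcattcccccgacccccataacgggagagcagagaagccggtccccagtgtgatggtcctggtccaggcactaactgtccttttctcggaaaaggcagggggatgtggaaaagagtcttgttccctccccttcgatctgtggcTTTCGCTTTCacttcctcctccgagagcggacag
PSMB9, chr6:32853992-32854221, plus strand: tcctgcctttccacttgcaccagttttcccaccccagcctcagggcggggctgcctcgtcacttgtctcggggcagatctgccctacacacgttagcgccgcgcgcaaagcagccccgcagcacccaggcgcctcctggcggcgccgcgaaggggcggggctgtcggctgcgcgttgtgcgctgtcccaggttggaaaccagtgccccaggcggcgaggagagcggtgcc
ERAP1, chr5:96807916-96808145, minus strand: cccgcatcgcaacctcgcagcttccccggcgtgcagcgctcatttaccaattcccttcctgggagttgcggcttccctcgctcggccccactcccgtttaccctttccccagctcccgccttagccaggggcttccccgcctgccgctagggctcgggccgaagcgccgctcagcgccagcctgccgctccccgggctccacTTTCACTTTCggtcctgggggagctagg

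The element was found in 7 of the 8 windows, PSMB9 being the window without it, and in 3.57% of the 35116 RefSeq promoter windows of the same length. The TAP1 matches lie between the starts of TAP1 and PSMB9, upstream of both, but outside the stretch that the PSMB9 window covers. The empty PSMB9 window therefore does not show that the promoter shared by the pair lacks the element. In B2M, TAP1 and TAPBP the capitals hold a pair of matches that overlap. Counted from the start, the first match began 144 bases upstream in B2M, 156 in HLA-F, 134 in TAP1, 58 in TAP2 and 20 in TAPBP. In PSMB8 the match spanned the start, and in ERAP1 it began 2 bases after it. The other motifs searched, also on both strands, were less uneven. CCAAT, the NF-Y box, was in 5 of 8 windows against 34.6% of all, and GGG followed after any 5 bases by CC, an NF-kB pattern of low specificity, in 5 of 8 against 58.7%. The windows of TAP1 and PSMB9 overlap, and their CCAAT is the same site counted in each. TTCNNNGAA, the gamma-activated site, was in PSMB8 only, against 7.66% of all windows. TGANTCA, the AP-1 site, and TGACGTCA, the cyclic AMP element, were in none of the 8, against 7.71% and 1.85%. These counts describe letters in the reference and were not tested.

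The depth was 5.12 M to 47.9 M mapped reads in the 48 libraries from which it could be read. A library had 7130 to 22644 peaks of H3K4me2, 4391 to 12844 of H3K4me3 and 590 to 102183 of H3K27me3. The 6 libraries of NALM6 replicate 1 carry another scaling of the signal, and their H3K4me2 and H3K4me3 peaks were shorter, with a median length of 672 to 916.5 bp against 1200 to 3210 bp in the others. Counts past the adjusted threshold in tests with NALM6 are therefore given with and without them. The library labelled H3K27me3 of Raji untreated replicate 2 stood apart as well, with a peak at 52.3% of gene starts. Among the H3K4me3 libraries, NALM6 bryostatin replicate 3 had the lowest share of gene starts with a peak, 24.5%, and it was kept. Checked against marker genes, H3K4me3 was called in all 6 libraries at 6 of 6 B-lineage genes in Raji, at 4 in NALM6 and at 5 in REH. Of 5 precursor B genes it was called throughout at 0, 3 and 4 in the same order. None of the 12 T cell, myeloid, erythroid or liver markers had a peak in any library.

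Nearly every one of the 9 starts carried both H3K4 marks in every line. Within 1 kb of the canonical start, H3K4me2 was called in 153 of the 162 combinations of gene and library and H3K4me3 in 154 of 162. H3K27me3 was called in 10 of 162, of which 9 were in 1 library that stood apart. Outside that library, H3K27me3 was called at 0.714 to 21.8% of all gene starts per library. In Raji all 9 genes had both marks in all 6 libraries, where 41.6% of all protein-coding genes had H3K4me2 and 47.4% had H3K4me3. In REH all 9 had H3K4me2 throughout, against 46.2% of genes, and 8 had H3K4me3, against 39.1%, NLRC5 being the exception. In NALM6, H3K4me2 was called in every library of a group at 6 genes in untreated cells and 6 in bryostatin-treated cells, and H3K4me3 at 6 and 8. The background over the same 3 libraries of a group was 23% and 26.2% of genes for H3K4me2 and 30.6% and 23.7% for H3K4me3. Without replicate 1, a choice made after the data were seen, H3K4me2 was called in both remaining libraries at 8 and 8 genes, against 38.6% and 48.1%. H3K4me3 was then called at 9 and 8, against 49.2% and 24.5%. A start without a call is not read as a start without the mark, since each library has a lowest level that it calls.

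The level of a mark is given as the start signal, the summed signal of the peaks that touch the 1 kb window, divided by the median over all protein-coding genes with such a peak in the same library. A value of 1 is thus a typical marked start. This measure grows with the length of the peaks, which differs between genes and between libraries. The signal per called base, again divided by the library's median, was used to compare genes with each other and is given too for TAP2, NLRC5 and PSMB8, which passed between lines.

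**Figure D1:**
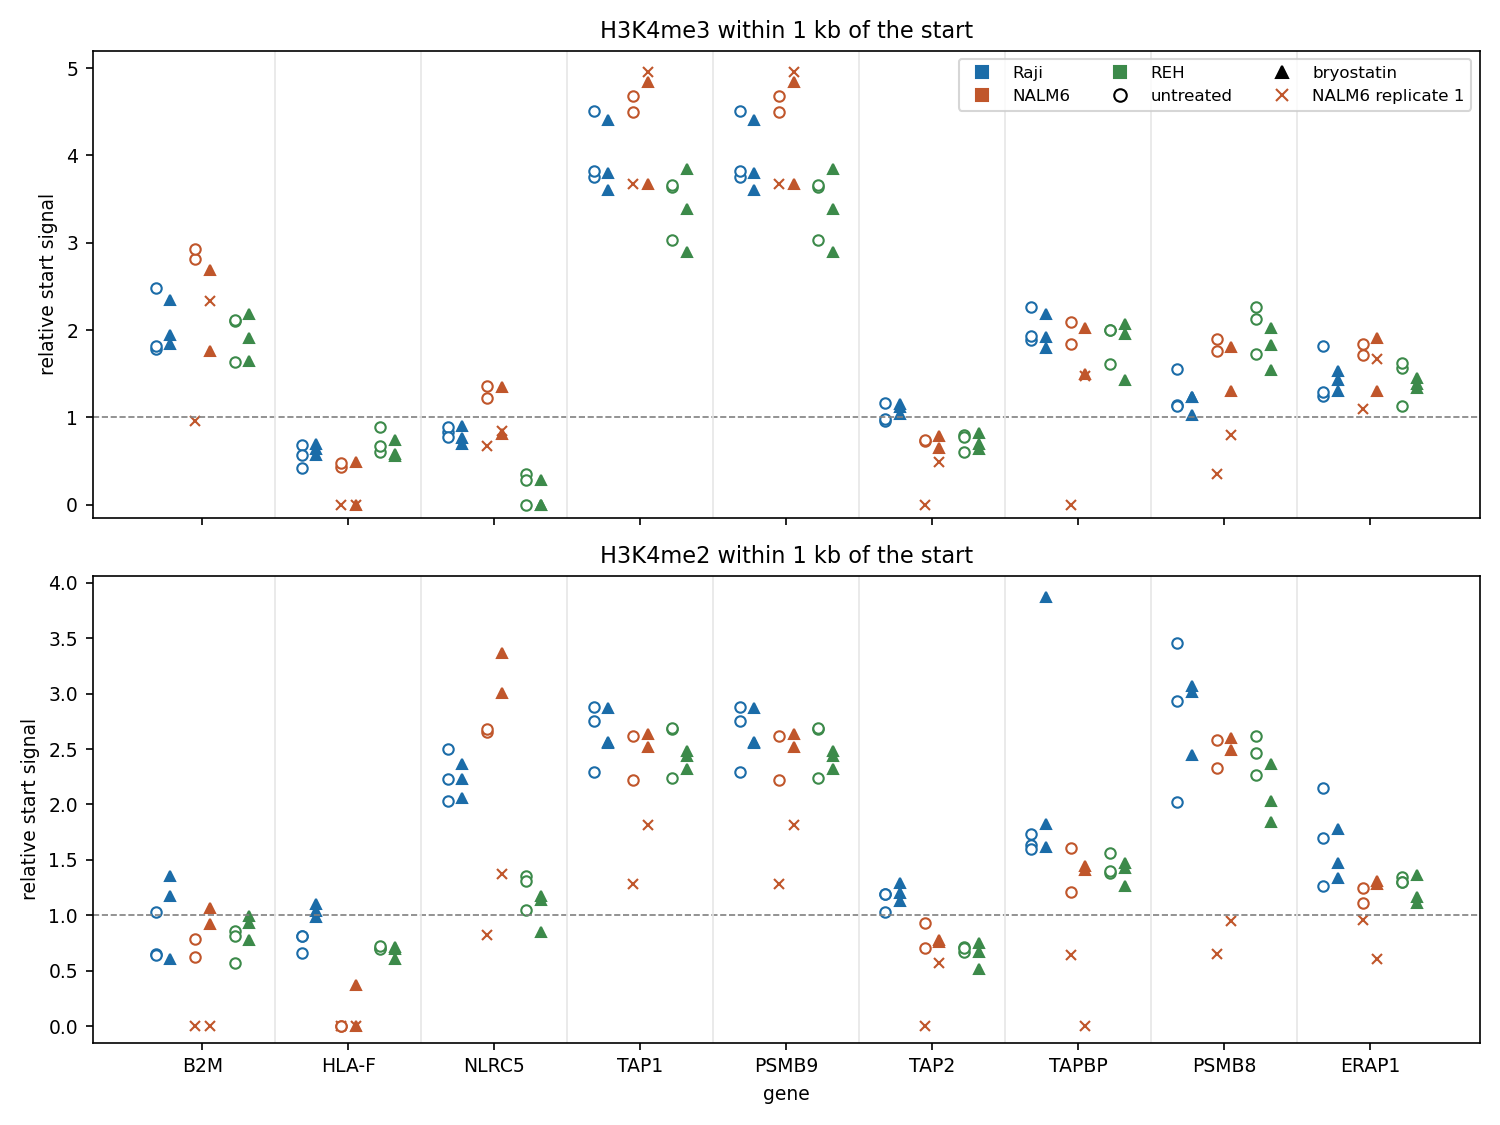
The start signal of H3K4me3 (top) and H3K4me2 (bottom) of the 9 genes is plotted for each library, on a linear axis where the dashed line at 1 is the median marked start and 0 is a start without a call. Circles are untreated libraries, triangles bryostatin-treated ones, colours the lines and crosses NALM6 replicate 1. TAP1 and PSMB9 sit between 2.90 and 4.95 for H3K4me3, and NLRC5 is lower in REH than in Raji for both marks.

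The shared promoter of TAP1 and PSMB9, which encode a subunit of the peptide pump and an immunoproteasome subunit, carried the most H3K4me3 of the 9 genes. Its start signal was 4.51, 3.75 and 3.82 in untreated Raji and 4.40, 3.80 and 3.60 with bryostatin. In REH it was 3.64, 3.03 and 3.66 untreated and 2.90, 3.85 and 3.38 with bryostatin. In NALM6 it was 3.67, 4.50 and 4.68 untreated and 4.95, 4.84 and 3.67 with bryostatin, replicate 1 being the first of each. All 18 libraries were thus far above the typical start, and the treated and untreated ranges overlapped in each line. Per called base the pair had 2.50 times the median start (median of 18 libraries, range 1.94 to 3.17). This put it at a median percentile of 97.9 among marked starts, and it was the highest of the 9 genes in 17 of 18 libraries. For H3K4me2 the signal per base was 1.72 and was the highest of the 9 in 12 of 18 libraries.

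TAP2, the other subunit of the pump, stood lower than TAP1. Its H3K4me3 signal per base was 0.93 of the median start (range 0.48 to 1.26 over 17 libraries). The H3K4me3 start signal of TAP2 was 1.16, 0.953 and 0.984 in untreated Raji and 1.15, 1.12 and 1.04 with bryostatin. In REH it was 0.802, 0.605 and 0.780 untreated and 0.636, 0.826 and 0.691 with bryostatin, so every Raji library was above every REH library in summed signal. Per called base the H3K4me3 medians were 0.968 in Raji and 0.996 in REH, and the ranges overlapped. For H3K4me2 the start signal of TAP2 likewise ran from 1.03 to 1.29 in Raji and from 0.513 to 0.748 in REH, with no overlap. In NALM6 the H3K4me2 start signal was 0.705 and 0.932 in untreated replicates 2 and 3 and 0.774 and 0.758 with bryostatin, between the other lines or within the REH range.

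TAPBP, which encodes tapasin, had 1.51 times the median H3K4me3 signal per base (range 1.07 to 1.97 over 17 libraries). Its H3K4me3 start signal was 1.80 to 2.26 in Raji and 1.42 to 2.07 in REH, and these ranges overlapped. With H3K4me2 one library stood out, Raji bryostatin replicate 2 at 3.87, where a peak called over 13680 bp touched the window. The other 5 Raji libraries had 1.60 to 1.82. A further H3K4 region, chr6:33296081-33301550 for H3K4me2, overlapped the 3′ end of the gene and reached beyond it, and was called in 17 of 18 libraries. Starts of other genes were not looked up there, so this region cannot be assigned to TAPBP.

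PSMB8, the other immunoproteasome subunit of the group, had 1.24 times the median H3K4me3 signal per base and 1.60 times the median for H3K4me2. Its H3K4me3 start signal was 1.55, 1.14 and 1.13 in untreated Raji and 1.23, 1.23 and 1.03 with bryostatin. In REH it was 2.12, 1.72 and 2.26 untreated and 1.54, 2.02 and 1.82 with bryostatin. The untreated groups did not overlap, REH being the higher, while the highest Raji library (1.55) was just above the lowest REH library (1.54) over all 12. In NALM6 replicates 2 and 3 had 1.76 and 1.89 untreated and 1.81 and 1.30 with bryostatin. The H3K4me2 start signal of PSMB8 did not follow that order, with 2.02 to 3.46 in Raji and 1.84 to 2.61 in REH. The strongest H3K4me3 position lay upstream of the canonical start, by a median of 618 bp, whereas NLRC5 had its median 22 bp upstream and ERAP1 60 bp downstream of the start. PSMB8 has 7 annotated starts, and PSMB8-AS1 begins in the same region.

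**Figure D2:**
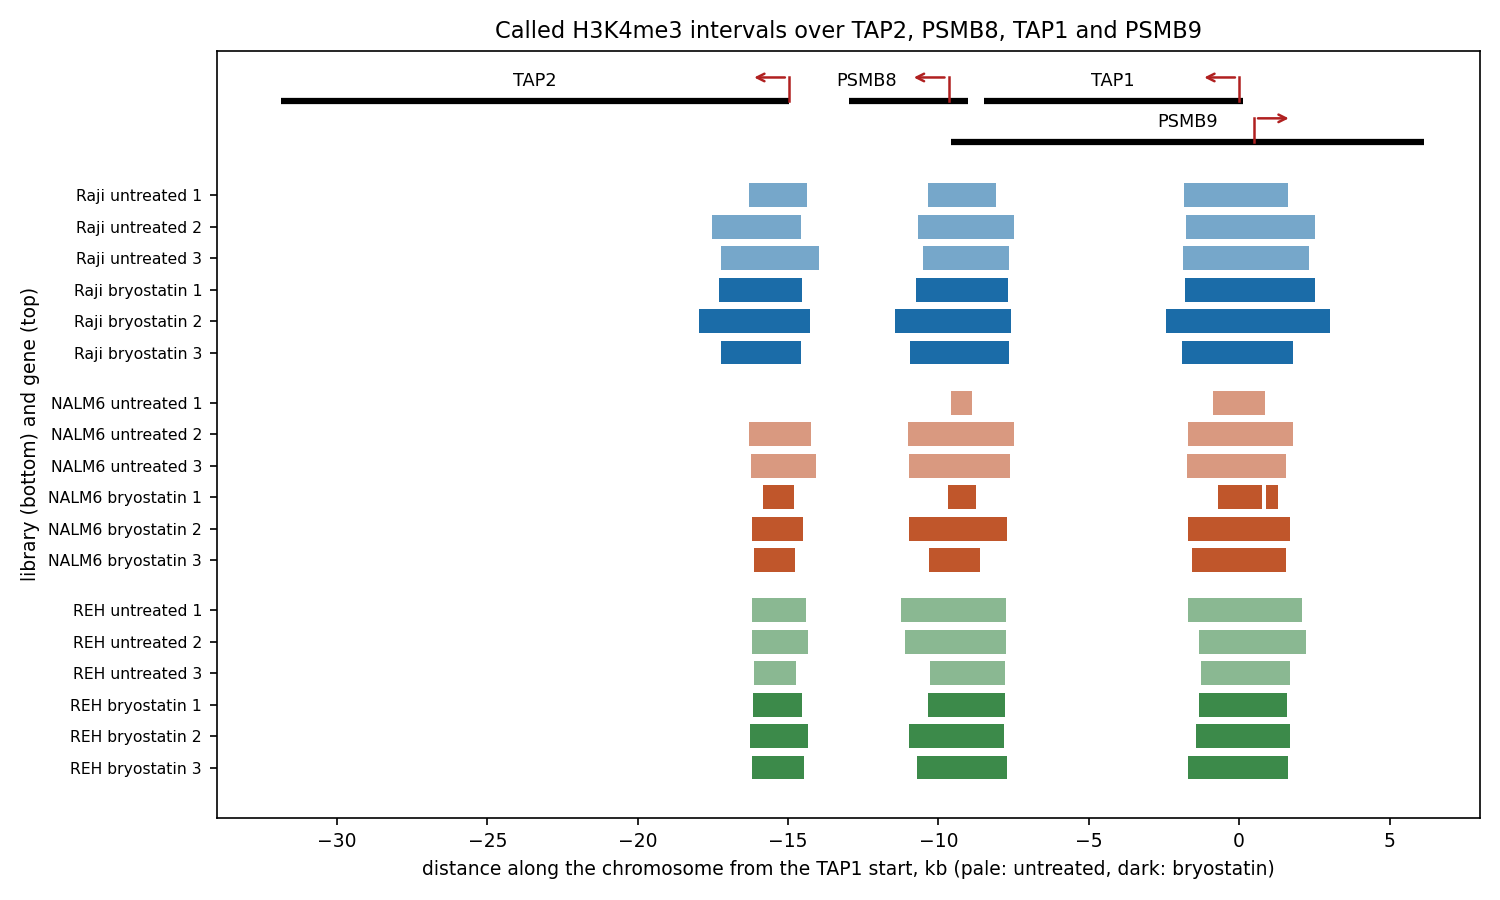
Intervals called as H3K4me3 peaks are drawn to scale for each of the 18 libraries (pale, untreated; dark, bryostatin) against the distance in kb along the chromosome from the TAP1 start, with gene bodies as black bars and canonical starts as red arrows. Separate intervals lie at the starts of TAP2, PSMB8 and the TAP1 and PSMB9 pair. In NALM6 untreated replicate 1 the TAP2 interval is absent and the PSMB8 interval lies beside the start without covering it.

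B2M, the light chain gene, was marked differently by the 2 H3K4 marks. Its H3K4me3 signal per base was 1.42 times the median start, a median percentile of 75.3, and its H3K4me2 signal per base was 0.69, a median percentile of 17.4. The H3K4me3 start signal was 2.49, 1.79 and 1.82 in untreated Raji and 2.34, 1.94 and 1.84 with bryostatin. In REH it was 2.11, 1.63 and 2.12 untreated and 1.64, 2.18 and 1.91 with bryostatin. The groups overlapped in both lines. In NALM6 it was 2.81 and 2.93 in untreated replicates 2 and 3, 2.69 and 1.76 with bryostatin, and 0.963 and 2.34 in replicate 1 of the 2 groups.

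HLA-F, the non-classical heavy chain gene, had a median H3K4me3 signal per base of 0.67 of the median start over the 15 libraries in which it was called. In REH it had 0.78, against 0.46 for NLRC5 in the 3 libraries where that was called. Its H3K4me3 start signal was 0.414, 0.685 and 0.567 in untreated Raji and 0.564, 0.692 and 0.637 with bryostatin. In REH it was 0.886, 0.598 and 0.669 untreated and 0.581, 0.739 and 0.553 with bryostatin. In NALM6 it was called in 3 of 6 libraries for H3K4me3, at 0.437, 0.472 and 0.484, and in 1 of 6 for H3K4me2, at 0.369. The lowest H3K4me2 level called anywhere in a NALM6 library was 0.361 to 0.524, so HLA-F lay near or under what could be called there. For H3K4me3 the lowest level called in NALM6 bryostatin replicate 3, where HLA-F had no call, was 0.583. Class I heavy chain genes are near-identical in places, and how reads that map to several of them were placed is not given in the sources used here.

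ERAP1, the peptide-trimming enzyme, had 1.69 times the median H3K4me3 signal per base (range 1.16 to 2.32 over 18 libraries). Its H3K4me3 start signal ran from 1.25 to 1.82 in Raji, 1.09 to 1.91 in NALM6 and 1.13 to 1.63 in REH, so the lines overlapped. For H3K4me2 the start signal ran from 0.605 to 2.15 over all libraries, with the highest value in Raji untreated replicate 1.

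NLRC5, the transactivator, had a lower summed start signal of both H3K4 marks in REH than in Raji. Its H3K4me2 start signal was 2.50, 2.03 and 2.23 in untreated Raji and 2.05, 2.36 and 2.23 with bryostatin. In REH it was 1.36, 1.05 and 1.31 untreated and 1.18, 1.14 and 0.851 with bryostatin, below every Raji library. NALM6 had 2.65 and 2.68 in untreated replicates 2 and 3 and 3.37 and 3.01 with bryostatin, against 0.823 and 1.38 in replicate 1. REH was the lowest line for H3K4me3 as well. The H3K4me3 start signal was 0.828, 0.890 and 0.770 in untreated Raji and 0.700, 0.906 and 0.759 with bryostatin. In NALM6 it was 0.669, 1.22 and 1.36 untreated and 0.844, 1.35 and 0.811 with bryostatin. REH had a call in 3 of 6 libraries, at 0.354 and 0.282 untreated and 0.283 with bryostatin. In the other 3 REH libraries the lowest H3K4me3 level called at any start was 0.306 to 0.436, so a level like that of the called libraries would have been missed in most of them. Per called base NLRC5 had 1.18 times the median H3K4me2 and 0.71 of the median H3K4me3. On that scale the H3K4me2 ranges of the lines overlapped, with 0.90 to 1.51 in Raji and 0.89 to 1.24 in REH.

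Away from its start, NLRC5 carried further H3K4me2 regions, and these were picked out after their values were seen. A region in intron 1, 9.26 to 11.97 kb downstream of the start (chr16:56998821-57001530), was called in 4 of 6 Raji libraries, 0 of 6 NALM6 libraries and 0 of 6 REH libraries. A second one in intron 1, at 12.63 to 15.77 kb (chr16:57002191-57005330), was called in 3 of 6 Raji libraries, 4 of 6 NALM6 libraries and 0 of 6 REH libraries. The 4 NALM6 libraries were those of replicates 2 and 3. In Raji the first region was missing in untreated replicates 2 and 3 and present in all bryostatin libraries. The bryostatin H3K4me2 libraries of Raji were also deeper, with 15.6 M to 18.8 M mapped reads against 6.70 M to 13.9 M, and the part of depth in these calls was not tested. A region further down the gene, at 48.6 to 54.3 kb (chr16:57038161-57043880), which touches 5 of the 49 exons, was called in 6 Raji, 5 NALM6 and 4 REH libraries.

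**Figure D3:**
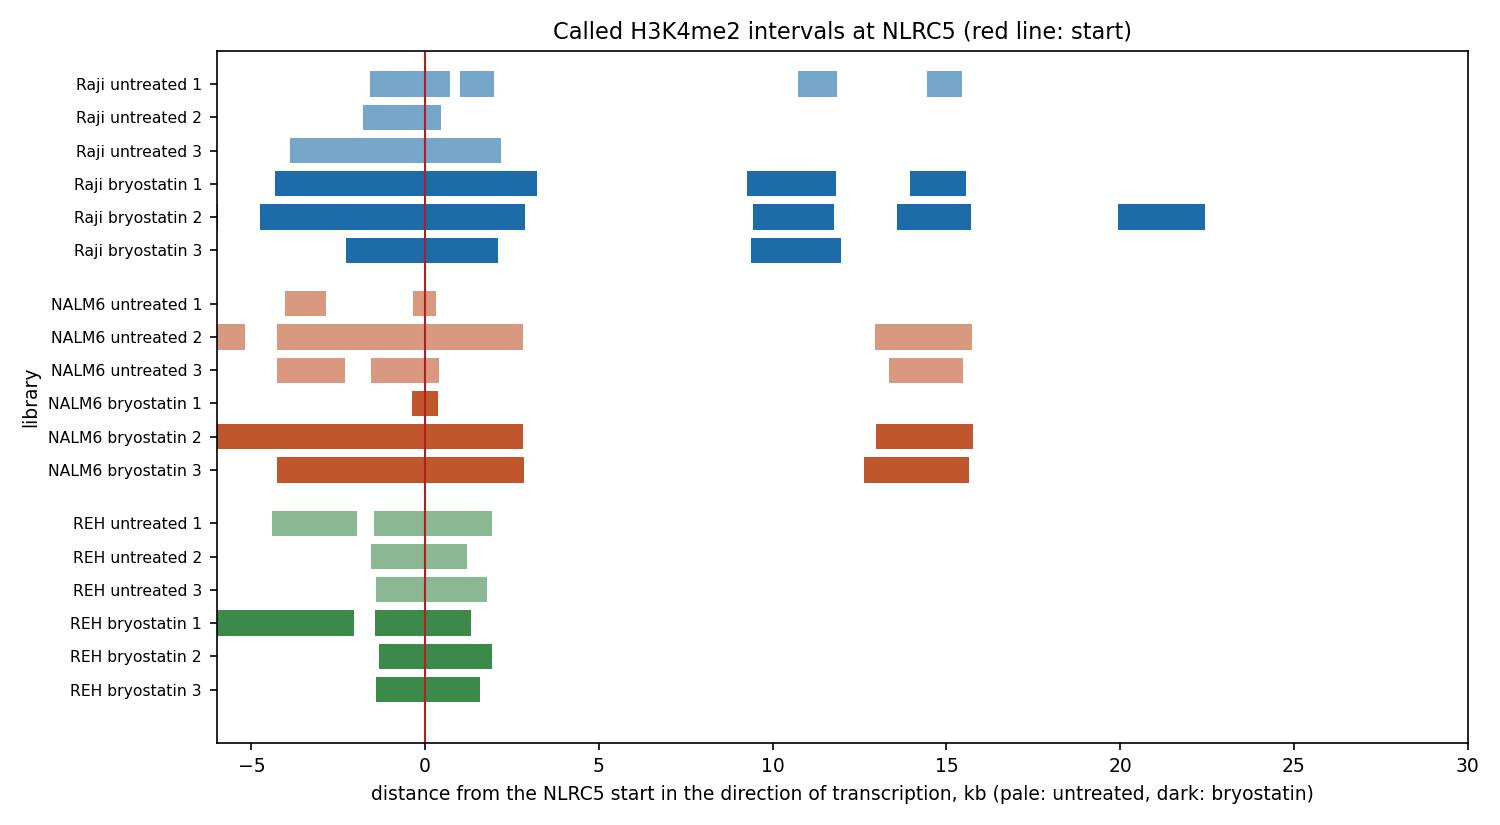
Intervals called as H3K4me2 peaks are drawn to scale for each of the 18 libraries (pale, untreated; dark, bryostatin) against the distance in kb from the NLRC5 start, marked by the red line, in the direction of transcription. Intervals at the left edge go on beyond it. The start is covered in every library, and no REH library has a call in the plotted stretch of intron 1 from 9.26 kb on.

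Whether bryostatin changed the marks at these starts was tested within each line. Peaks were merged across the 6 libraries of a line and mark, and log2 summed signals of the regions called in all 6 were compared with limma after centring each library on its median. P-values were adjusted over all regions by the Benjamini-Hochberg method at a threshold of 0.05. No member passed for H3K4me2. The counts were 0 of 9 (Raji), 0 of 5 tested (NALM6) and 0 of 9 (REH), where 0%, 0% and 0.406% of tested protein-coding start regions passed. For H3K4me3 the counts were 0 of 9, 0 of 6 and 0 of 8, against 0.115%, 0% and 1.29%. At an unadjusted p under 0.05 there were 1, 0 and 2 members for H3K4me2, against 5.15%, 0.782% and 6.12% of start regions. For H3K4me3 there were 0, 0 and 0, against 4.88%, 0.202% and 9.64%. TAP2, TAPBP, B2M and HLA-F for H3K4me2 in NALM6, TAP2, TAPBP and HLA-F for H3K4me3 in NALM6 and NLRC5 for H3K4me3 in REH were not called in all 6 libraries and were not tested over all 6. Without replicate 1 of both groups, 0 of 8 members passed in NALM6 for either mark, where 0% of start regions did. At an unadjusted p under 0.05 there were then 0 and 0 members, against 8.66% and 2.66%. The log2 changes for H3K4me2 were then 0.40 for B2M, 0.10 for TAPBP and -0.18 for TAP2, with adjusted p of 0.370, 0.786 and 0.541 in limma. For H3K4me3 they were 0.33 for TAP2 and 0.20 for TAPBP, with an adjusted p of 0.936 each.

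**Figure D4:**
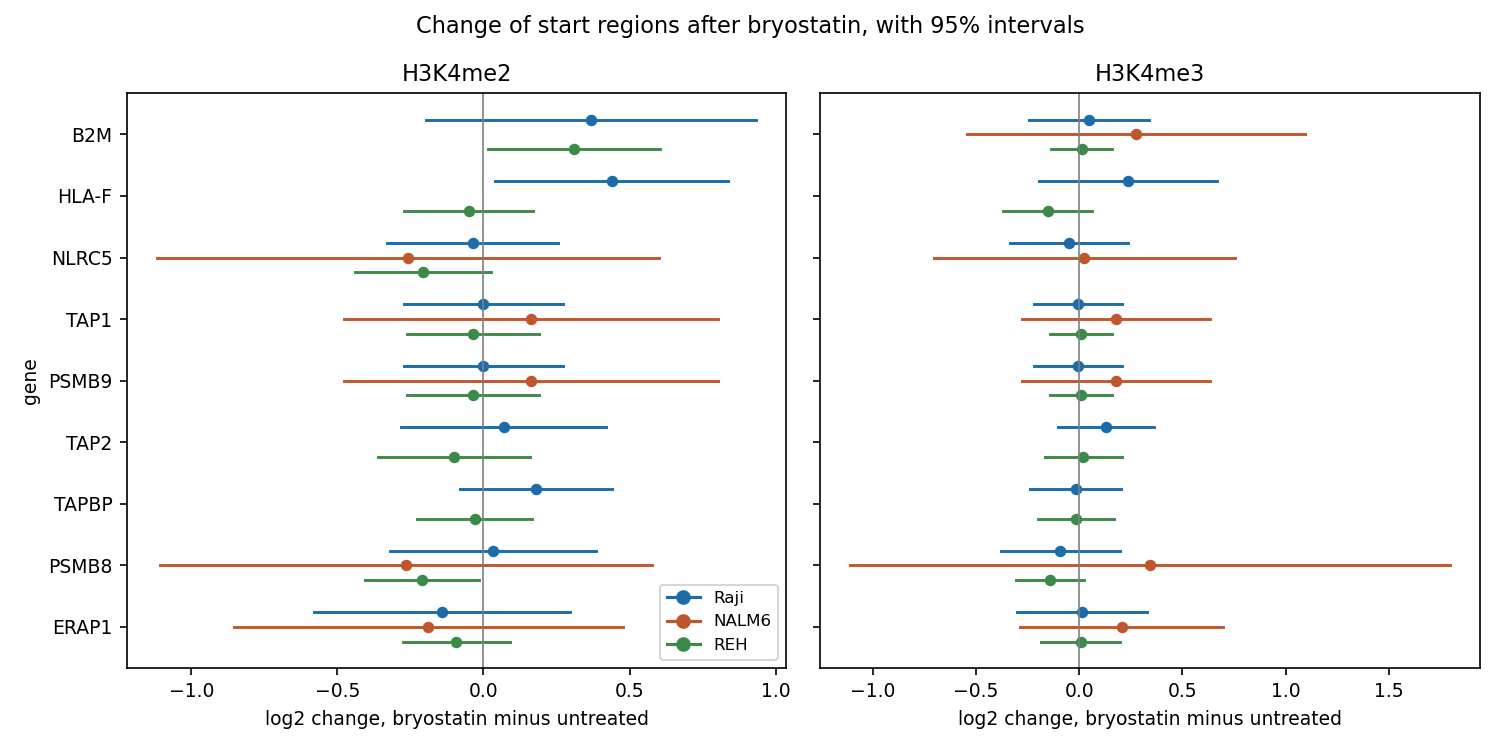
Points are the limma log2 change of the start region after bryostatin, for H3K4me2 (left) and H3K4me3 (right), with bars for the 95% confidence interval and colours for the lines (3 against 3 libraries each). Most intervals span 0, and those of NALM6 are the widest, reaching from -1.11 to 1.79 for PSMB8 H3K4me3.

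The intervals come from the fit without the replicate block. For H3K4me3 the 95% intervals of all tested members together reached from -0.38 to 0.67 on the log2 scale in Raji and from -0.37 to 0.21 in REH. For H3K4me2 they reached from -0.58 to 0.93 in Raji and from -0.44 to 0.60 in REH. In NALM6 the outer bounds were -1.12 and 0.80 for H3K4me2 and -1.11 and 1.79 for H3K4me3. With the block, which pairs libraries by number, the SE in NALM6 fell from 0.63 to 0.20 for PSMB8 H3K4me3 and from 0.37 to 0.13 for NLRC5 H3K4me2, and 0 members passed either way. At the TAP1 and PSMB9 promoter the H3K4me3 change was -0.01 in Raji (interval -0.22 to 0.21) and 0.01 in REH (interval -0.14 to 0.16). For NLRC5 the H3K4me2 change was -0.04 in Raji (interval -0.33 to 0.26) and -0.21 in REH (interval -0.44 to 0.02).

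HLA-F had the H3K4me2 change of lowest p in Raji. The relative signal of its region in the fit was 0.55, 0.83 and 0.73 in untreated cells and 0.85, 0.99 and 0.98 with bryostatin. The groups did not overlap, and the log2 change was 0.44 ± 0.18 (SE), with an adjusted p of 0.718 in limma. Without Raji untreated replicate 1 it was 0.27. In REH the HLA-F change was -0.05 (interval -0.27 to 0.17). The difference between the responses of REH and Raji was -0.48 in a limma interaction over 12 libraries, with an adjusted p of 0.718. It ran from -0.60 to -0.31 with single libraries left out. The greater depth of the bryostatin H3K4me2 libraries of Raji, given above, moves with this change, and its part was not tested.

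In REH the H3K4me2 values of 3 members did not overlap between the groups, against 12.4% of all tested start regions. B2M had 0.76, 0.54 and 0.76 untreated and 0.78, 0.92 and 0.82 with bryostatin, a log2 change of 0.31 with an adjusted p of 0.473 in limma, which was 0.14 without REH untreated replicate 2. PSMB8 had 2.002, 2.31 and 2.45 untreated and 1.999, 1.89 and 1.94 with bryostatin, groups that barely part, a log2 change of -0.21 with an adjusted p of 0.453. ERAP1 was the third, with -0.09. In Raji the count was 2 for H3K4me2, HLA-F and TAPBP, against 9.9%, and for H3K4me3 in NALM6 it was 2, the TAP1 and PSMB9 pair of 1 region, against 5.01%. That region had a relative signal of 2.64 to 2.66 untreated and 2.70 to 3.59 with bryostatin in the fit, while the start signals above overlapped. In the other comparisons no member was separated, against 9.18% for H3K4me2 in NALM6 and, for H3K4me3, 12.2% in Raji and 16.8% in REH. In the interaction, no member's response differed between Raji and REH, with 0 of 9 for H3K4me2 and 0 of 8 for H3K4me3, against 0% and 0.0547% of start regions, and with 1 and 0 members at an unadjusted p under 0.05, against 5.54% and 3.97%.

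The untreated lines were then compared in the same way, which shows how the promoters differ before any treatment. Line and preparation cannot be told apart in these comparisons, and those with REH share the REH libraries. Between Raji and REH, 2 of 9 members passed for H3K4me2, where 43.9% of start regions passed, and 2 of 8 for H3K4me3, where 49.4% did. Neither share of members is above that background. The values of 2 members for H3K4me2 and 3 for H3K4me3 did not overlap between the lines, against 53.6% and 59.2%. TAP2 was higher in Raji for both marks, NLRC5 was higher in Raji for H3K4me2, and PSMB8 was lower in Raji for H3K4me3.

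**Figure D5:**
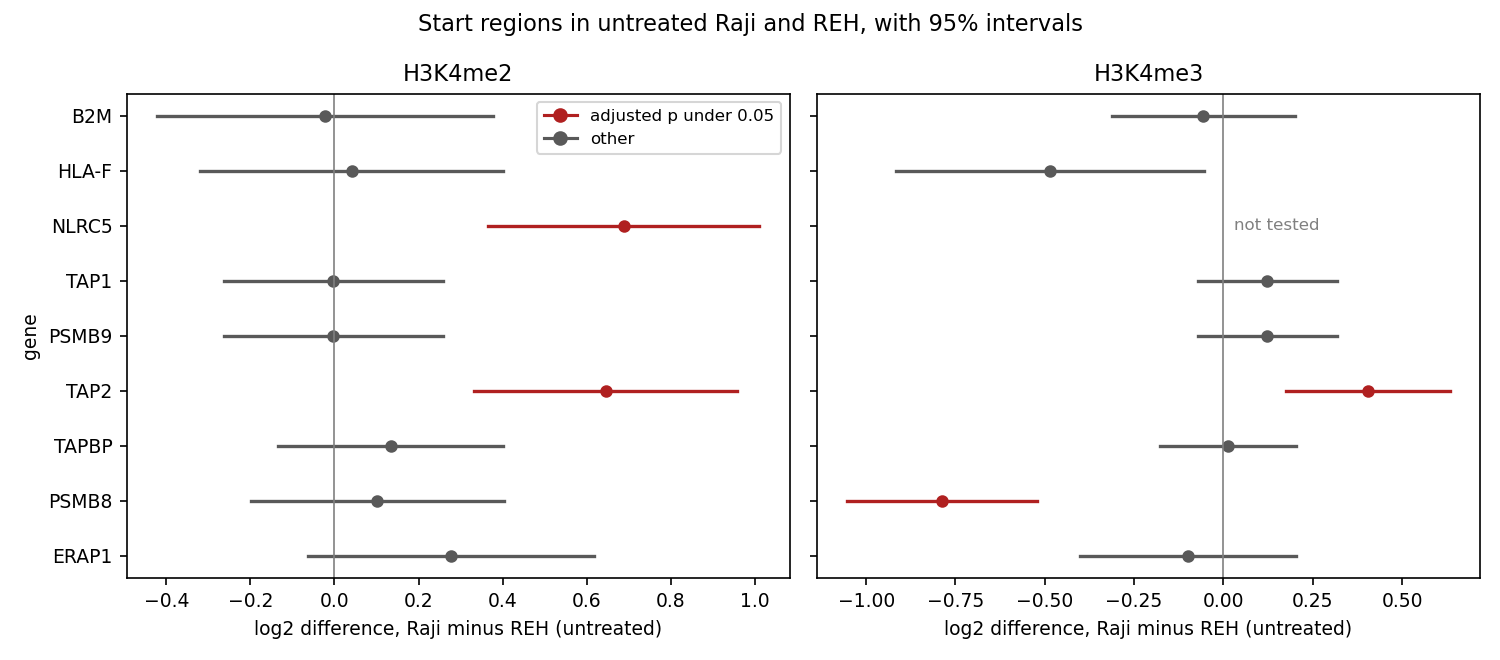
Points are the limma log2 difference of the start region between untreated Raji and REH (3 against 3 libraries), for H3K4me2 (left) and H3K4me3 (right), with bars for the 95% confidence interval and red for an adjusted p under 0.05. TAP2 lies above 0 for both marks, NLRC5 above 0 for H3K4me2 and PSMB8 below 0 for H3K4me3, at -0.79.

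For TAP2 the relative H3K4me2 signal in the fit was 0.95, 1.15 and 0.90 in Raji and 0.59, 0.67 and 0.66 in REH. The log2 difference was 0.64 ± 0.14 (SE), with an adjusted p of 0.00254 in limma. For H3K4me3 TAP2 had 0.92, 0.80 and 0.84 in Raji and 0.62, 0.62 and 0.69 in REH, a difference of 0.40 (interval 0.18 to 0.63) with an adjusted p of 0.00831. Both passed with each library left out in turn, at 0.59 to 0.72 and 0.35 to 0.46. Measured as the mean signal per called base, the TAP2 differences were 0.18 for H3K4me2 and -0.058 for H3K4me3 and neither passed. By the maximum signal the H3K4me2 difference passed, at 0.88 with an adjusted p of 0.00039 in limma, and the H3K4me3 difference did not, at 0.39 with an adjusted p of 0.0775. Without centring neither passed, at 0.39 and 0.22, with adjusted p of 0.141 and 0.754.

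NLRC5 had a relative H3K4me2 signal of 1.99, 1.96 and 1.96 in Raji and 1.53, 0.98 and 1.21 in REH. The log2 difference was 0.69 (interval 0.37 to 1.01), with an adjusted p of 0.00203 in limma, and it passed with each library left out in turn, at 0.53 to 0.85. Per called base it was 0.35 with an adjusted p of 0.185, by the maximum signal 0.40 with an adjusted p of 0.0659, and without centring 0.43 with an adjusted p of 0.127. For H3K4me3 NLRC5 was not called in REH untreated replicate 2 and had no test here. Where 2 libraries of a group were enough, the H3K4me3 difference was 1.38 with an adjusted p of 5.76e-05 in limma, a value that drops the library without a call.

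PSMB8 had a relative H3K4me3 signal of 1.23, 0.96 and 0.96 in Raji and 1.65, 1.76 and 2.01 in REH. The log2 difference was -0.79 (interval -1.05 to -0.52), with an adjusted p of 0.000406 in limma, and it passed with each library left out in turn, at -0.91 to -0.71. Per called base it was -0.41 with an adjusted p of 0.0797. The H3K4me2 difference of PSMB8 was 0.10 with an adjusted p of 0.578, so the gene stood lower in Raji for H3K4me3 and was not called for H3K4me2. HLA-F had the third non-overlapping H3K4me3 values, 0.33, 0.58 and 0.48 in Raji and 0.69, 0.61 and 0.59 in REH, with a difference of -0.48 and an adjusted p of 0.0597. Leaving out Raji untreated replicate 2 gave -0.66 and an adjusted p of 0.0161. With single libraries left out in turn the HLA-F difference ran from -0.66 to -0.26. The promoter of TAP1 and PSMB9 differed by 0.00 for H3K4me2 (interval -0.26 to 0.26) and by 0.12 for H3K4me3 (interval -0.07 to 0.32). B2M differed by -0.02 and -0.06, and TAPBP by 0.13 and 0.01, without a call. By the maximum signal TAPBP was lower in Raji for H3K4me3, at -0.40 with an adjusted p of 0.0428 in limma. ERAP1 differed by 0.28 for H3K4me2 with no call, and passed without Raji untreated replicate 3, at 0.48, and by the maximum signal, at 0.74 with an adjusted p of 0.000992. With single libraries left out the ERAP1 difference went down to 0.16, and without centring it was 0.02 with an adjusted p of 0.9385 in limma.

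In the comparisons with NALM6 fewer regions passed. Against REH, 1 of 6 members passed for H3K4me2, where 8.93% of start regions did, and 0 of 5 for H3K4me3, where 6.86% did. The member was NLRC5, with a relative H3K4me2 signal of 1.60, 2.19 and 2.49 in NALM6 and 1.19, 0.75 and 0.92 in REH, a log2 difference of 1.13 and an adjusted p of 0.0242 in limma. The call was lost when NALM6 untreated replicate 2 or 3 or any of the REH libraries was left out, with values of 0.47 to 1.30, and without centring the sign turned, to -0.34. It was also lost per called base, at 0.39, and by the maximum signal, at 0.21, with adjusted p of 0.36 and 0.817 in limma. Without NALM6 untreated replicate 1 the NLRC5 difference was 1.36 with an adjusted p of 3.33e-06. In that setting 2 of 8 members passed for H3K4me2, NLRC5 and TAP2, and 4 of 8 for H3K4me3, against 28.4% and 43.6% of start regions. The latter were B2M at 0.47, TAP1 and PSMB9 at 0.32 and HLA-F at -0.74. Without REH untreated replicate 2, 1 member passed for H3K4me3, NLRC5 at 1.82. At an unadjusted p under 0.05 with all libraries there were 2 members for H3K4me3, the TAP1 and PSMB9 pair, against 23% of start regions.

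Between Raji and NALM6 the limma counts were 0 of 6 for H3K4me2 and 0 of 6 for H3K4me3, where 16.5% and 18.6% of start regions passed. At an unadjusted p under 0.05 there were 0 and 1 members, against 29.5% and 31.8%, the latter being NLRC5 at -0.44 with an adjusted p of 0.147. By the maximum signal ERAP1 passed for H3K4me2, at 1.00 with an adjusted p of 0.0176. Without NALM6 untreated replicate 1, 1 of 8 passed for H3K4me2, NLRC5 at -0.65, against 29.9% of start regions. For H3K4me3 it was 4 of 9, against 43.5%, with B2M at -0.54, PSMB8 at -0.56 and NLRC5 at -0.67 lower in Raji and TAP2 at 0.46 higher in Raji.

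Outside 1 library, H3K27me3 was rarely called at these genes. In the library labelled H3K27me3 of Raji untreated replicate 2, peaks were called at all 9 starts, and in the other 5 Raji libraries at no member start. That library called 52.3% of gene starts, and 82.8% of these carried H3K4me3 in every Raji library, against 5.41 to 21.8% in the other 5. Whether it holds that mark was not tested, and no level is given for it. In NALM6 one start had a call, PSMB8 in bryostatin replicate 3, at 0.450 over 200 bp. In REH none of the 9 starts had a call in any of 6 libraries. Over all genes, 0.869% in Raji, 0.489% in NALM6 and 7.26% in REH had H3K27me3 at the start in all 6 libraries. A single library called 8.57 to 15.3% of gene starts in REH and 0.714 to 18.7% in NALM6. In the other 5 Raji libraries it was 1.03 to 21.8%. At such shares few or no calls among 9 genes say little about these genes. Short peaks away from the starts were called within HLA-F in Raji untreated replicate 3 and at the 3′ end of TAPBP in NALM6 bryostatin replicate 3.

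The rest of the pathway was read from a list of 40 genes that hold the classical and other non-classical heavy chains, chaperones, peptidases, constitutive and inducible proteasome subunits and the transcription factors of the class I promoter. After bryostatin, 0 of 33, 0 of 13 and 0 of 33 tested genes passed for H3K4me2 in Raji, NALM6 and REH in limma. For H3K4me3 the counts were 1 of 36, 0 of 21 and 0 of 32. At an unadjusted p under 0.05 there were 2, 0 and 3 genes for H3K4me2 and 6, 0 and 3 for H3K4me3, to be read against the shares of all start regions given above. The median H3K4me3 change of the list was 0.09 in Raji, against -0.01 for the 9 members and 0.00 for all tested start regions. In NALM6 and REH the list medians for this mark were -0.03 and -0.01, against 0.19 and 0.01 for the tested members. For H3K4me2 they were 0.07, 0.22 and 0.00 in Raji, NALM6 and REH, against 0.03, -0.19 and -0.05 for the tested members. The 1 gene that passed was HLA-E, a non-classical heavy chain that binds the NKG2A receptor of natural killer cells. Its relative H3K4me3 signal was 1.06, 1.06 and 1.04 in untreated Raji and 1.91, 1.76 and 1.73 with bryostatin, a log2 change of 0.77 (interval 0.56 to 0.98) with an adjusted p of 0.0279. The groups did not overlap, but the call was lost when Raji untreated replicate 3 or any bryostatin library was left out, with adjusted p of 0.106 to 0.197 and changes of 0.72 to 0.80 over all 6 settings. With the replicate block it passed, with an adjusted p of 0.000842. The call was also lost with the maximum or mean signal, without centring and without trend. In REH the HLA-E change was 0.11 with an adjusted p of 0.635. HLA-F, the non-classical member, had a change of 0.24 (interval -0.19 to 0.67) for the same mark in Raji, which was 0.02 without untreated replicate 1 and 0.41 without untreated replicate 2.

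Between untreated Raji and REH, 5 of 32 genes of the list were higher and 3 lower in Raji for H3K4me2, where 43.9% of all start regions passed. For H3K4me3 6 were higher and 8 lower of 32, where 49.4% passed. The list medians were -0.04 and -0.06. By summed signal the largest H3K4me2 differences were PDIA3, a chaperone of the loading complex, at 0.71 (adjusted p of 0.000273 in limma), NFYC, a subunit of the CCAAT-binding factor, at 0.63, and PSMB10, the remaining immunoproteasome subunit, at 0.59. Without Raji untreated replicate 3 PDIA3 was at 0.33, still past the threshold, and none of these 3 genes passed per called base or without centring. For H3K4me3 they were TAPBPL, a tapasin-related peptide editor, at -2.02 (adjusted p of 4.35e-06), the classical heavy chain HLA-C at -1.03 and the interferon-response factor IRF1 at -0.76. TAPBPL passed by the other measures too, while HLA-C did not pass by the maximum signal (-0.79, adjusted p of 0.0511) and IRF1 did not per called base (-0.40, adjusted p of 0.0726). Between Raji and NALM6, NFYC was higher in Raji for H3K4me2 (1 of 17) and RFXAP and HM13 for H3K4me3 (2 of 23), where 16.5% and 18.6% of all start regions passed. With single libraries left out the differences were 0.66 to 0.89 for NFYC, 0.62 to 0.70 for RFXAP and 0.59 to 1.04 for HM13, and each of the 3 calls was lost without Raji untreated replicate 2 or 3. NFYC and HM13 also lost theirs without Raji untreated replicate 1 or NALM6 untreated replicate 2. Per called base none of these 3 genes passed, at 0.65 for NFYC, 0.31 for RFXAP and 0.22 for HM13. Without centring none did either, at 1.98, 1.85 and 2.00 in that order. By the maximum signal NFYC passed, at 1.17, and RFXAP and HM13 did not, at 0.48 and 0.68. Between NALM6 and REH 0 of 17 and 0 of 23 passed, with 0 and 3 at an unadjusted p under 0.05, against 22.7% and 23% of start regions. Without NALM6 untreated replicate 1 the counts were 6 of 30 for H3K4me2 and 10 of 32 for H3K4me3 between NALM6 and REH, and 2 of 30 and 14 of 36 between Raji and NALM6, below the shares of start regions given above for that setting. After bryostatin in NALM6, without replicate 1 of both groups, 0 of 30 and 0 of 28 passed.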

How the data were processed

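Per the labels and the methods, the authors trimmed reads with Trim Galore, aligned them to hg38 with Bowtie2, scaled coverage by RPKM and called peaks in each library with SEACR in stringent mode. The deposited signal values are the sum and the maximum of that coverage over each peak, made by the authors before any comparison. Versions of these tools are not given in the sources used here. The authors' own comparison used DESeq2, and no value of it was used. NALM6 replicate 1 was scaled otherwise by a factor not stated, and the mapped reads of the other 48 libraries were read from the steps of the coverage.

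Starts and bodies came from GENCODE 44. Peaks overlapping by at least 1 bp were merged, and regions called in all libraries of a fit entered the fits of limma 3.58.1 in R 4.3.3, with a trend in eBayes, which were tested on simulated data first. Tables used Python 3.11.15, pandas 2.3.3 and numpy 2.4.6, and figures matplotlib 3.10.9. The members, the pathway list and the tests were chosen with earlier results of these data known. All 9 members are named, and from the pathway list the 3 genes of largest change past the threshold in each comparison. A rule to name genes with a pattern like that of NLRC5 could not be applied, since its H3K4me3 was called in 9 of 12 Raji and REH libraries.

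Replicate numbers are shared between treated and untreated groups. Deviations of same-numbered libraries correlated above 0.1 in every pair in 5 of 6 fits (0.13 to 0.68), and between -0.31 and 0.42 for H3K4me2 in Raji. None of the main fits took the numbers as pairs, and the replicate block was run as another setting for each line and mark. Other settings tried were quantile normalization or no centring, the mean or the maximum signal in place of the sum, no trend, regions called in at least 2 libraries of each group, merging across gaps of 500 bp, other start windows, the upper 0.5 of peaks, the replicate block and leaving out each library. The 18 IgG samples were not used here.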

Additional observations from a re-analysis of the deposited data

Results flagged for a closer look

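HLA-E, a gene of the pathway list and not of the 9 members, differed in its response to bryostatin between lines. The H3K4me3 change in REH minus that in Raji was -0.66 on the log2 scale (95% interval -0.88 to -0.44), with an adjusted p of 0.0365 in a limma interaction over 12 libraries. The relative H3K4me3 signal was higher in all 3 bryostatin libraries of Raji than in all 3 untreated ones. The call was lost in 10 of 12 fits that each left out 1 library, a setting added after the data were seen, with differences of -0.70 to -0.64 over the 12 and an adjusted p of 0.0348 to 0.136. The fits that kept it were without Raji untreated replicate 1 and without Raji bryostatin replicate 1. It was also lost with the maximum signal, the mean signal per base and no centring (adjusted p of 0.983 to 1.00), and kept with quantile normalization, no trend and the replicate block. Centring had removed a median shift of -0.19 in this comparison, of the same sign as the HLA-E difference. No member passed in the interaction.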

How the results depend on the processing

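With the replicate block, which pairs treated and untreated libraries by number, 0 members passed for either mark in any line, and no call of a named gene changed. The share of all start regions called rose to 0.919% for H3K4me2 in REH and, for H3K4me3, to 1.10% in Raji, 2.20% in REH and 0.356% in the difference of responses. Unlike numbers correlated too among NALM6 replicates 2 and 3. The counts after bryostatin and for the difference in response stayed at 0 in all 98 and 36 settings. Of the 733 member changes after bryostatin recomputed, 617 kept their direction and their side of the threshold and 116, all without a call, changed sign. Between lines 486 of 590 did so, and 74 without a call changed sign. Of 166 values of the named pathway genes 119 did.

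Between untreated Raji and REH the H3K4me2 count of 2 became 0 with the mean signal per base, 0 without centring and 1 with the upper 0.5 of peaks, and it was 2 to 3 with a library left out. With the maximum signal it stayed at 2, but these were TAP2 and ERAP1 in place of TAP2 and NLRC5. The H3K4me3 count of 2 became 0, 1 and 1 in the same settings and 2 to 3, and with the maximum signal the 2 were PSMB8 and TAPBP in place of PSMB8 and TAP2. Between NALM6 and REH the H3K4me2 count of 1 became 0 with the maximum signal, the mean, no centring or the upper 0.5 of peaks and was 0 to 2 with a library left out. The H3K4me3 count of 0 became 2 with regions called in at least 2 libraries of each group, with 0 to 4 when a library was left out. Between Raji and NALM6 the count of 0 became 1 for H3K4me2 with the maximum signal (0 to 1 with a library left out) and 1 for H3K4me3 with at least 2 libraries (0 to 4). Signs turned for NLRC5 H3K4me2 between NALM6 and REH without centring (-0.34), TAP2 and TAPBP H3K4me3 between Raji and REH by mean (-0.058) and maximum signal (-0.40), and PDIA3 H3K4me2 by mean signal (-0.24). PSMB8 H3K4me3 between Raji and NALM6 was -0.56 without NALM6 untreated replicate 1 and ranged up to 0.48. Centring removed a median shift of -0.25 and -0.20 between Raji and REH, 0.21 and 0.25 for bryostatin in Raji and over 1 in each comparison with NALM6, for H3K4me2 and H3K4me3. Presence counts in NALM6 fell to 3 for H3K4me2 in both groups with the upper 0.5 of peaks, and to 5 in bryostatin-treated REH. Leaving out the trend does not alter a fitted change. The HLA-E call in Raji was lost with the maximum or mean signal, without centring and without trend. The cause was not tested in any of these. Depth and the lowest level that a library calls limit what can be said of NLRC5 H3K4me3 in REH and of both H3K4 marks at HLA-F in NALM6.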
